A study of Mus musculus with 9 samples.

Results

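The genes examined were 37 mouse genes of glucose uptake, glycolysis and the use of pyruvate and lactate, set by a list of gene names: the glucose and lactate transporters, the glycolytic enzymes, the PFKFB and TIGAR regulators, pyruvate dehydrogenase with its kinases, and Hif1a. All 37 were among the 50686 genes counted, and 34 passed the filter on low counts with which 15531 genes were tested. Slc2a3, Slc2a4 and Aldoc did not pass. RNA-Seq had been performed on 3 groups of 3 libraries: control MC3T3-E1 cells, a mouse osteoblast cell line bought as 1 line; the same line after 14 days with 10 μM SB216763, which blocks the ATP site of glycogen synthase kinase 3 (GSK3); and mouse pulmonary endothelial cells (ECs), isolated by flow cytometric sorting and given no treatment. The sources used here give neither the culture time nor a vehicle of the control osteoblasts, nor whether the libraries of a group came from separate cultures or animals, so p-values measure the spread between these libraries. The study compared these groups to follow a shift of osteoblasts toward ECs, and the same comparisons are made here for the glucose genes.

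Glycolysis turns glucose into pyruvate in the cytosol. Its pace is set mostly at glucose entry and at hexokinase and phosphofructokinase-1, which fructose 2,6-bisphosphate, made and broken down by the PFKFB enzymes, stimulates. Pyruvate is then either reduced to lactate by lactate dehydrogenase and exported, or oxidized by pyruvate dehydrogenase, which pyruvate dehydrogenase kinases (PDKs) switch off. Osteoblasts and ECs are both known for taking much of their energy from glycolysis. Many of these genes are known targets of hypoxia-inducible factor 1 (HIF-1), whose oxygen-regulated subunit Hif1a encodes.

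The libraries held 30990107 to 68946333 counts. At these depths 3 counts corresponded to 0.0435 to 0.0968 CPM, that is counts relative to the library total, before further scaling. Every level below is in CPM scaled by the TMM factors of edgeR unless stated. In that unit, the 3 counts of Slc2a4 in control replicate 3 were 0.104 CPM. The 7 endothelial markers summed to 6184 to 6339.6 CPM in ECs and to 2.14 to 2.88 and 2.16 to 2.64 CPM in control and treated osteoblasts. The 6 osteoblast markers summed to 43916 to 59344 CPM in controls, 8066 to 8338 CPM with SB216763 and 45.1 to 64.5 CPM in ECs, and all 6 were lower with SB216763. Smooth muscle and pericyte markers, led by Acta2, summed to 2863 to 3042, 138 to 155 and 18.4 to 19.8 CPM in the same order, and leukocyte markers to 25.9 to 27.7, 8.28 to 9.88 and 56.3 to 58.4 CPM, of which the macrophage gene Cd68 made 45.5 to 47.5 CPM in ECs. Lung epithelial, adipocyte and erythroid markers stayed below 1 CPM in sum in every library. Axin2, a feedback gene of Wnt/β-catenin signaling that is known to rise when GSK3 is inhibited, stood at 26.5, 24.4 and 27.2 CPM in controls and at 0.831, 0.912 and 0.980 CPM in the libraries labelled SB216763 (log2 fold change -4.83 ± 0.10, edgeR, adjusted p = 4.1e-16), and Lef1 fell by 0.85 on the log2 scale. The part of these differences in the results below was not tested. In these bulk libraries, fewer cells of a type and less RNA per cell cannot be told apart.

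RefSeq promoter windows (GRCm38.p6, from 250 bases before to 50 bases after each start) were found for 35 of the 37 genes. They were searched on both strands for ACGTG and GCGTG, the core letters that HIF-1 is known to bind, for CACGTG, the E-box bound by MYC and carbohydrate-response factors, which contains ACGTG, and for ATCAAAG, bound by TCF/LEF factors. ACGTG occurred in the windows of 20 of the 35 genes (57.1%), against 21.8% of all genes with a window and 28.6% of those that were also tested here. GCGTG occurred in 23 (65.7%), against 35.2% and 54.5%. CACGTG occurred in 7 (20.0%), against 8.09% and 11.4%, and ATCAAAG in Tigar only (2.86%), against 4.29% and 2.98%. Genes with more than 1 start had more than 1 window and so more letters searched. ACGTG was held by 5 of the 11 genes that rose with SB216763, 7 of the 14 that fell and 7 of the 9 tested genes that were not called. Of the 4 windows shown, 2 belong to genes that rose, Slc16a1 (chr3:104638414-104638663, plus strand) and Pfkl (chr10:78009808-78010057, minus strand), and 2 to genes that fell, Ldha (chr7:46845554-46845803, plus strand) and Pfkfb3 (chr2:11502091-11502340, minus strand). They are the 250 bases before the start, 5′ to 3′ on the gene's strand, and capitals mark ACGTG or GCGTG on either strand.
Slc16a1: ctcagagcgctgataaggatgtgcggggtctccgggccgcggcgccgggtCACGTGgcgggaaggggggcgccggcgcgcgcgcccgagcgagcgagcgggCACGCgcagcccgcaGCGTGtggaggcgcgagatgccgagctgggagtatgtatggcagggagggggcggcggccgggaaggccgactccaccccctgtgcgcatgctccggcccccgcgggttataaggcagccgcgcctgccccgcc
Pfkl: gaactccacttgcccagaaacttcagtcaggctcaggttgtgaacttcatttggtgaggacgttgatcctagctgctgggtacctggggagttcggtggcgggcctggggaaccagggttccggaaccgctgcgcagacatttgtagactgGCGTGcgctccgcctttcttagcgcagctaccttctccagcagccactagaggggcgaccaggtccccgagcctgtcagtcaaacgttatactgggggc
Ldha: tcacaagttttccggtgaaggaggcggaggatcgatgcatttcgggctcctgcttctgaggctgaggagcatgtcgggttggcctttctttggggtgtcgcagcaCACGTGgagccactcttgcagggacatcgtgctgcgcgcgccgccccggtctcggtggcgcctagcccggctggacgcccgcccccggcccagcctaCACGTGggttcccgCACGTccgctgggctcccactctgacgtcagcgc
Pfkfb3: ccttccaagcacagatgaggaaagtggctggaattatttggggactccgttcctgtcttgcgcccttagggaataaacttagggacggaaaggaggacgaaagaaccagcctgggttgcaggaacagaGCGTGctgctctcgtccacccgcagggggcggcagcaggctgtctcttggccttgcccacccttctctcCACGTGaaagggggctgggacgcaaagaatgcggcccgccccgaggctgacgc
The windows of Slc16a1, Ldha and Pfkfb3 each hold a CACGTG, and Ldha holds it at 2 places. Genes on both sides of the SB216763 comparison thus carried these letters, and a match is a description of sequence and not a site shown to be bound.

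With SB216763, changes in both directions were found among the 34 tested genes. At an adjusted p under 0.01 (edgeR quasi-likelihood test, Benjamini-Hochberg over all genes tested), 11 were higher and 14 lower than in control osteoblasts and 9 were not called. That is 32.4% higher and 41.2% lower, beside 32.9% and 32.0% of all genes tested. Their median log2 fold change was -0.047, beside 0.014 over all genes. A change of 4-fold or more was reached by Eno2 upward and Pfkfb1 downward, 2.94% each way, beside 3.81% and 5.84% of all genes. At 2-fold, 4 were higher and 6 lower (11.8% and 17.6%, beside 11.1% and 13.0%). The glucose transporter Slc2a1, hexokinase Hk1, glucose-6-phosphate isomerase Gpi1, phosphofructokinase Pfkl, the lactate transporter Slc16a1 and the kinase Pdk1 rose by 1.61-fold to 2.11-fold. The PFKFB genes Pfkfb1, Pfkfb3 and Pfkfb4, Tigar, Ldha and the pyruvate dehydrogenase subunits fell. Slc2a10, Pfkp, Eno3, Pdk3 and Pdk4 fell too, by 1.50-fold to 3.13-fold. Glucose transporter, phosphofructokinase-1, PFKFB, enolase and PDK genes thus each moved both ways. Pkm and Hif1a were also lower, and Slc2a8, Pfkfb2, Aldoa, Tpi1 and Eno2 also higher. With library sizes in place of TMM factors, the median of all genes in this comparison moved by 0.20 on the log2 scale, Pkm, Pdhb and Hif1a were no longer called, and Pfkm and Pgam1 were called higher.

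**Figure D1:**
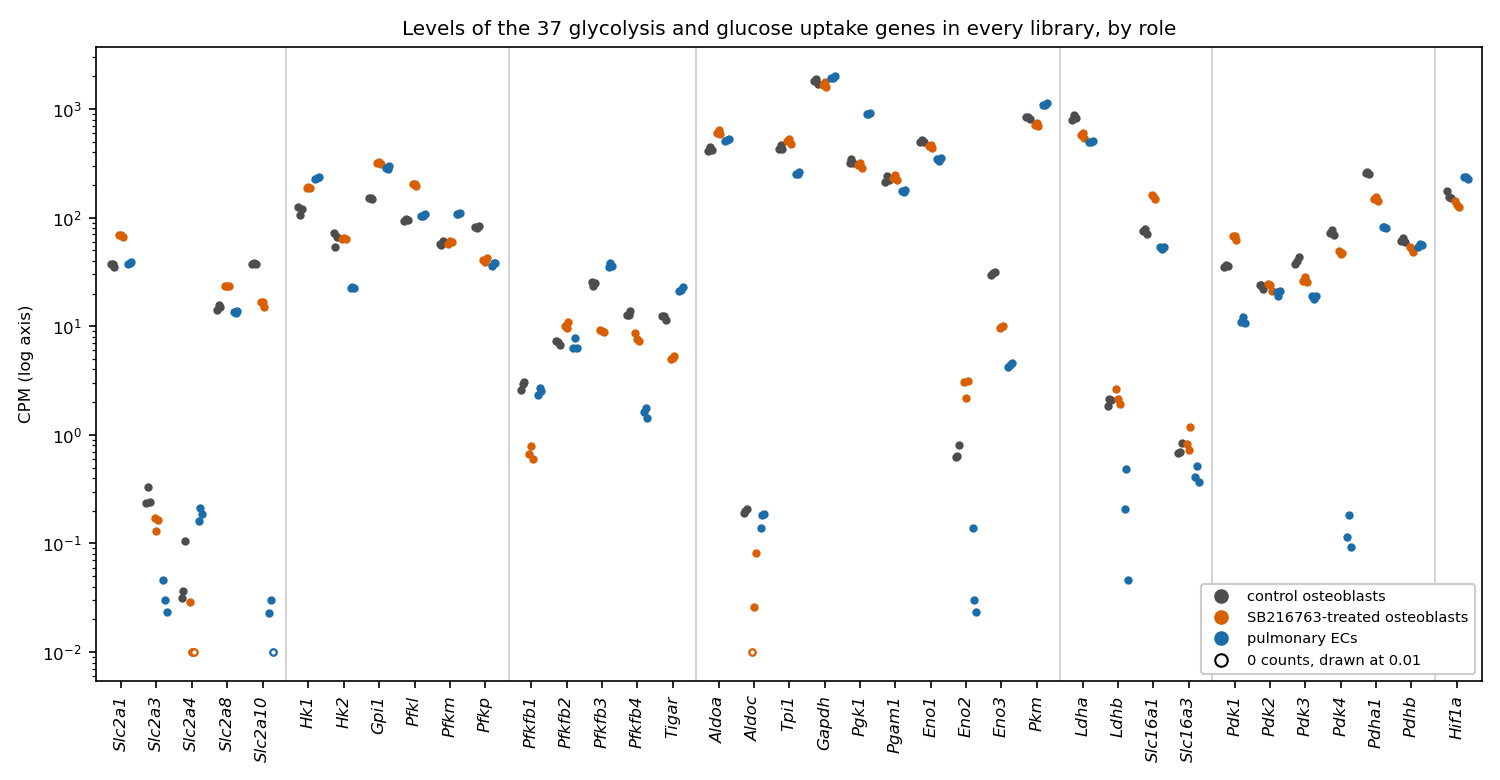
Levels of the 37 genes in each of the 9 libraries, in CPM on a log axis, with genes ordered by role from transporters to Hif1a; each point is 1 library and open points are libraries with 0 counts. Libraries of a group lie close together for most genes, and Slc2a3, Slc2a10, Aldoc, Eno2 and Pdk4 fall below 0.2 CPM in the 3 EC libraries.

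Glucose transporters came first in the order of the pathway. Slc2a1 (chr4:119108711-119137983) encodes GLUT1, the widespread basal transporter. It measured 37.6, 37.7 and 34.8 CPM in the control libraries, 69.00, 68.6 and 65.7 CPM with SB216763 and 37.6, 38.1 and 38.6 CPM in ECs. All 3 treated libraries lay above the others, while control and EC libraries overlapped. The log2 fold change with SB216763 was 0.88 ± 0.045 (SE, edgeR, adjusted p = 4.2e-11), a 1.84-fold increase. Between ECs and controls it was 0.052 ± 0.046 with a 95% interval of -0.037 to 0.14 (edgeR, adjusted p = 0.3), and with library sizes alone it was called higher in ECs (edgeR, adjusted p = 0.0014). Slc2a8, encoding the intracellular transporter GLUT8, measured 14.2, 15.7 and 14.9 CPM in controls, 23.6, 23.5 and 23.4 CPM with SB216763 and 13.4, 13.2 and 13.9 CPM in ECs, and rose 1.57-fold with treatment.

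Slc2a10 (chr2:165503787-165519917) encodes GLUT10, which carries glucose and dehydroascorbic acid. It measured 37.2, 38.4 and 37.6 CPM in controls and 16.7, 16.6 and 15.1 CPM with SB216763, and the groups did not overlap (log2 fold change -1.23 ± 0.060, edgeR, adjusted p = 2.9e-11). The EC libraries held 2 counts of it in all, against 5552 in the controls. The ratio of control to EC level was 2257, with a 95% counting interval of 624 to 18641. Slc2a4, encoding the insulin-responsive transporter GLUT4, was close to the limit of detection in every library. It gave 2, 2 and 3 counts in controls, 1, 0 and 0 counts with SB216763 and 7, 7 and 8 counts in ECs. The control level was 5.23 times the treated level with an interval of 0.672 to 235.7, so no difference between control and treated osteoblasts was detectable at this depth. The EC level was 3.87 times the control level (interval 1.59 to 10.7) and 20.2 times the treated level (interval 3.27 to 834.5). Slc2a3, encoding GLUT3, gave 15, 18 and 7, 6, 5 and 6 and 2, 1 and 1 counts in the same order. Per kb of exon, Slc2a1 and Slc2a10 held similar levels in controls, 10.5 and 10.6 CPM per kb, and 19.3 and 4.52 CPM per kb with SB216763.

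The steps from hexokinase to phosphofructokinase-1 summed to 567 ± 19.3 CPM in controls, 873 ± 13.9 CPM with SB216763 and 792 ± 18.6 CPM in ECs (SD, n = 3). Hk1, the hexokinase of most tissues, measured 126, 106 and 120.1 CPM in controls and 188, 192 and 186 CPM with SB216763, without overlap, and 225, 232 and 237 CPM in ECs. It was 1.61-fold higher with treatment and 1.98-fold higher in ECs than in controls. Hk2, the inducible hexokinase, measured 72.1, 53.7 and 66.0 CPM in controls and 63.8, 65.0 and 64.1 CPM with SB216763. These libraries overlapped, and the 95% interval of the log2 difference was -0.14 to 0.16 (edgeR, adjusted p = 0.94). ECs held 22.6, 22.9 and 22.5 CPM of Hk2, 2.82-fold less than controls. Gpi1, which turns glucose 6-phosphate into fructose 6-phosphate, measured 151, 152 and 149.8 CPM in controls, 317, 325 and 314 CPM with SB216763 and 285, 279 and 298 CPM in ECs, and rose 2.11-fold with treatment (edgeR, adjusted p = 2.4e-12).

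The 3 phosphofructokinase-1 genes encode subunits of the same enzyme and moved apart. Pfkl (chr10:77986947-78010083), the liver-type subunit, measured 93.9, 96.6 and 94.6 CPM in controls, 203, 205 and 195 CPM with SB216763 and 104, 103 and 107 CPM in ECs. It rose 2.11-fold with treatment (log2 fold change 1.08 ± 0.042, edgeR, adjusted p = 1.4e-12). Pfkp, the platelet-type subunit, measured 82.3, 80.4 and 83.4 CPM in controls and 40.5, 39.3 and 42.5 CPM with SB216763, and fell 2.01-fold (log2 fold change -1.01 ± 0.046, edgeR, adjusted p = 1.1e-11). In ECs Pfkp measured 36.0, 38.5 and 38.5 CPM. Pfkm, the muscle-type subunit, measured 56.6, 56.4 and 61.2 CPM in controls and 57.6, 61.0 and 59.0 CPM with SB216763, with overlapping libraries and a 95% interval of the log2 difference of -0.059 to 0.12. With library sizes alone Pfkm was called higher with SB216763 (log2 difference 0.24, edgeR, adjusted p = 0.0002). It stood at 108, 107 and 110.0 CPM in ECs. Exons of Pfkp and Pfkm overlap those of Pitrm1 and Senp1 on the opposite strand, and the strand setting of the counting is not given in the sources used here. In all libraries together, Pitrm1 had 35902 counts against 21014 for Pfkp, and Senp1 had 28751 against 27957 for Pfkm.

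Of the 5 regulators of fructose 2,6-bisphosphate, 4 fell and 1 rose with SB216763, beside 32.0% of all genes falling and 32.9% rising. PFKFB and TIGAR genes summed to 59.7 ± 0.861 CPM in controls, 32.9 ± 0.658 CPM with treatment and 69.2 ± 2.95 CPM in ECs. This sum adds genes whose enzymes make fructose 2,6-bisphosphate to genes whose enzymes break it down. Pfkfb3 (chr2:11471433-11554077), whose enzyme strongly favors making the activator, measured 25.5, 23.6 and 25.0 CPM in controls and 9.14, 9.05 and 8.88 CPM with SB216763, a 2.74-fold fall (log2 fold change -1.45 ± 0.060, edgeR, adjusted p = 3.5e-12). ECs held 34.9, 38.4 and 36.2 CPM, more than either osteoblast group. Tigar (chr6:127085116-127109557), a phosphatase that lowers the activator, measured 12.5, 12.4 and 11.3 CPM in controls, 4.96, 5.08 and 5.31 CPM with SB216763 and 21.00, 21.4 and 22.9 CPM in ECs. It fell 2.37-fold with treatment (edgeR, adjusted p = 3e-10). Between treated osteoblasts and ECs, both Pfkfb3 and Tigar differed by 4-fold or more, with log2 differences of -2.01 ± 0.060 and -2.09 ± 0.071. Pfkfb3 stayed below 4-fold with library sizes alone, with upper-quartile scaling, without the filter, in the fit of those groups alone and without SB216763 replicate 3 or EC replicate 2 (to a log2 difference of -1.98).

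Pfkfb1, the liver and muscle form, was the least abundant of the regulators in osteoblasts, at 2.57, 2.95 and 3.06 CPM in controls, 0.659, 0.782 and 0.599 CPM with SB216763 and 2.31, 2.68 and 2.53 CPM in ECs. Its log2 fold change with treatment was -2.05 ± 0.16 (edgeR, adjusted p = 1.2e-08), and its exons overlap those of Apex2 on the opposite strand, which had 4415 counts in all libraries together against 786 for Pfkfb1. Without SB216763 replicate 3, or with library sizes alone, its change stayed below 4-fold. Pfkfb4 measured 12.6, 12.8 and 13.7 CPM in controls, 8.60, 7.56 and 7.27 CPM with SB216763 and 1.63, 1.77 and 1.44 CPM in ECs, and fell 1.66-fold with treatment. Pfkfb2, the heart form, moved the other way, from 7.29, 7.08 and 6.70 CPM to 10.1, 9.72 and 11.00 CPM, a 1.45-fold rise (edgeR, adjusted p = 4e-05), with 6.28, 7.83 and 6.32 CPM in ECs. Its exons overlap those of Yod1 on the opposite strand, which had 4551 counts in all libraries together against 2979 for Pfkfb2.

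The steps from aldolase to pyruvate kinase held most of the counts of the pathway, 4559.5 ± 178 CPM in controls, 4510.4 ± 200.1 CPM with SB216763 and 5272 ± 132 CPM in ECs. As shares of raw counts these genes made 0.408% to 0.441%, 0.465% to 0.497% and 0.522% to 0.546% in the same order. The near-equal sums of control and treated osteoblasts thus depend on the TMM scaling. Of the 9 genes tested there, 3 rose, 2 fell and 4 were not called with SB216763, beside 32.9% of all genes rising and 32.0% falling. Aldoa, the main aldolase, rose from 409.6, 444 and 417 CPM to 607, 634 and 585 CPM, 1.44-fold, and measured 503, 513 and 530.3 CPM in ECs. Aldoc, the brain-type aldolase, gave 12, 11 and 6 counts in controls, 0, 1 and 3 counts with SB216763 and 6, 6 and 8 counts in ECs, and its control level was 5.42 times the treated level with a 95% counting interval of 1.90 to 21.2. Tpi1, triosephosphate isomerase, measured 424, 463 and 431 CPM in controls, 509.7, 531 and 480.1 CPM with SB216763 and 253, 252 and 263 CPM in ECs. It rose 1.15-fold (log2 fold change 0.21), and the call was lost in 4 of the 9 fits that left out 1 library, in which the log2 fold change was 0.17 to 0.20, with adjusted p of 0.014, 0.015, 0.012 and 0.014 (edgeR) without control replicates 1 and 3 and SB216763 replicates 1 and 2.

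Gapdh, glyceraldehyde-3-phosphate dehydrogenase and often used as a reference gene, measured 1795, 1872 and 1684 CPM in controls, 1669, 1768 and 1589 CPM with SB216763 and 1935, 1918 and 2020.2 CPM in ECs. The control and treated libraries overlapped, with a 95% interval of the log2 difference of -0.21 to 0.024. Gapdh was called higher in ECs than in controls with DESeq2 (adjusted p = 0.0068) and with library sizes alone (edgeR, adjusted p = 0.00031). Pgk1, phosphoglycerate kinase, measured 318, 346 and 315 CPM in controls and 304, 319 and 288 CPM with SB216763, whereas ECs held 907, 892 and 927 CPM, 2.78-fold more than controls (log2 difference 1.48 ± 0.054, edgeR, adjusted p = 3.4e-13). Pgam1, phosphoglycerate mutase, measured 213, 240.1 and 223 CPM in controls, 232, 246 and 222 CPM with SB216763 and 177, 173 and 181 CPM in ECs, with a 95% interval of -0.055 to 0.15 for the log2 difference with treatment. The log2 differences of Gapdh and Pgk1 with SB216763 turned positive with library sizes alone, and Pgam1 was then called higher. These 3 genes, Aldoa, Eno1 and Ldha have processed copies in the table, and reads could have been split between them. Exons of Aldoa, Tpi1 and Gapdh also overlap those of Fam57b, Spsb2 and Iffo1 on the opposite strand, which had fewer counts.

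The 3 enolase genes also moved apart. Eno1, the ubiquitous enolase, measured 495, 514 and 492 CPM in controls, 455, 468 and 435 CPM with SB216763 and 343, 334 and 353 CPM in ECs. Its treated libraries lay below the controls, but its log2 difference of -0.15 ± 0.047 missed the threshold (edgeR, adjusted p = 0.011). Eno1 was called lower with DESeq2 (adjusted p = 0.0018), with limma-voom (adjusted p = 0.0044), in the fit of those groups alone (edgeR, adjusted p = 0.0052) and without SB216763 replicate 2 (edgeR, adjusted p = 0.0080), and with library sizes alone its log2 difference was 0.058. Eno1b, an Eno1-like gene, had 30 to 128 counts in the osteoblast libraries and 2111 to 3178 in the EC libraries. Eno3, the muscle enolase, measured 29.6, 30.9 and 31.5 CPM in controls, 9.55, 9.78 and 10.1 CPM with SB216763 and 4.19, 4.36 and 4.56 CPM in ECs, a 3.13-fold fall with treatment (edgeR, adjusted p = 4.3e-13). Eno2 (chr6:124760053-124769673), the neuron-type enolase, was scarce and moved upward, from 0.630, 0.637 and 0.799 CPM to 3.04, 2.16 and 3.16 CPM, with a log2 fold change of 2.05 ± 0.23 (edgeR, adjusted p = 6.5e-07). ECs held 0.137, 0.0305 and 0.0232 CPM. Leaving out 1 library took the change of Eno2 below 4-fold in 4 of the 9 fits, those without control replicates 1 and 2 and SB216763 replicates 1 and 3. Pkm, pyruvate kinase, measured 847, 837 and 801 CPM in controls and 716, 736 and 702 CPM with SB216763, a 1.15-fold fall (edgeR, adjusted p = 0.0012) that was not called without the filter on low counts. In ECs Pkm measured 1099, 1087 and 1144 CPM.

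At the lactate end, the dehydrogenase and the transporter moved in opposite directions. Ldha (chr7:46841475-46855627), which makes lactate from pyruvate, measured 799, 888 and 822 CPM in controls, 573, 596 and 539.6 CPM with SB216763 and 492, 495 and 506 CPM in ECs. It fell 1.47-fold with treatment (log2 fold change -0.55 ± 0.054, edgeR, adjusted p = 1.4e-07). Slc16a1 (chr3:104638668-104658462), encoding the lactate and pyruvate transporter MCT1, measured 75.9, 78.1 and 71.2 CPM in controls, 160.3, 158 and 148 CPM with SB216763 and 53.9, 51.3 and 53.6 CPM in ECs. It rose 2.07-fold with treatment (log2 fold change 1.05 ± 0.048, edgeR, adjusted p = 1.3e-11) and was 1.42-fold lower in ECs than in controls. Bsg, which encodes the chaperone basigin that MCT1 needs to reach the cell surface, rose from 631, 684 and 629 CPM to 1202, 1267 and 1086 CPM and was chosen for mention after its values were seen. Ldhb, the heart-type dehydrogenase, measured 1.84, 2.15 and 2.08 CPM in controls and 2.64, 2.14 and 1.93 CPM with SB216763, with overlapping libraries, and 0.206, 0.487 and 0.0463 CPM in ECs. Slc16a3, encoding MCT4, measured 0.677, 0.692 and 0.834, 0.831, 0.730 and 1.17 and 0.412, 0.518 and 0.371 CPM in the 3 groups. Its 95% interval for the log2 difference with SB216763 was -0.11 to 0.79.

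Pyruvate dehydrogenase and its kinases summed to 491 ± 12.3 CPM in controls, 362 ± 15.4 CPM with SB216763 and 188 ± 1.09 CPM in ECs. Pdha1 (chrX:160122209-160138413), the catalytic E1 alpha subunit, measured 255, 263 and 253 CPM in controls, 148, 153 and 141 CPM with SB216763 and 82.1, 82.5 and 80.1 CPM in ECs. It fell 1.74-fold with treatment (edgeR, adjusted p = 1e-10) and was 3.15-fold lower in ECs than in controls. Pdhb, the E1 beta subunit, measured 60.5, 65.2 and 59.4 CPM in controls, 53.2, 52.7 and 47.8 CPM with SB216763 and 54.1, 57.3 and 56.0 CPM in ECs, and fell 1.21-fold with treatment.

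Of the kinases, Pdk1 (chr2:71873224-71903858) measured 35.3, 36.3 and 36.0 CPM in controls, 67.5, 67.9 and 62.3 CPM with SB216763 and 10.97, 12.1 and 10.6 CPM in ECs. It rose 1.84-fold (log2 fold change 0.88 ± 0.050, edgeR, adjusted p = 1.8e-10). Pdk4 (chr6:5483351-5496309), the kinase known to be induced by fasting, measured 71.8, 76.2 and 69.6 CPM in controls, 49.3, 46.7 and 46.8 CPM with SB216763 and 0.115, 0.183 and 0.0927 CPM in ECs. It fell 1.53-fold with treatment (edgeR, adjusted p = 1e-08), and its EC counts, 5, 6 and 4, were near the limit of 3 counts. Pdk3 measured 37.02, 40.2 and 43.3 CPM in controls, 26.1, 28.5 and 25.4 CPM with SB216763 and 19.0, 17.9 and 19.1 CPM in ECs, and fell 1.50-fold with treatment. Pdk2 overlapped between controls and treated osteoblasts, at 24.1, 23.9 and 21.9 and 24.7, 24.1 and 21.3 CPM, with a 95% interval of the log2 difference of -0.13 to 0.13. Hif1a, the HIF-1 subunit gene, measured 176, 154 and 152 CPM in controls, 141, 130.5 and 125 CPM with SB216763 and 235, 238 and 226 CPM in ECs. Its 1.22-fold fall (edgeR, adjusted p = 0.00049) left the 3 treated libraries below the 3 controls. RNA levels do not report the HIF-1 protein.

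**Figure D2:**
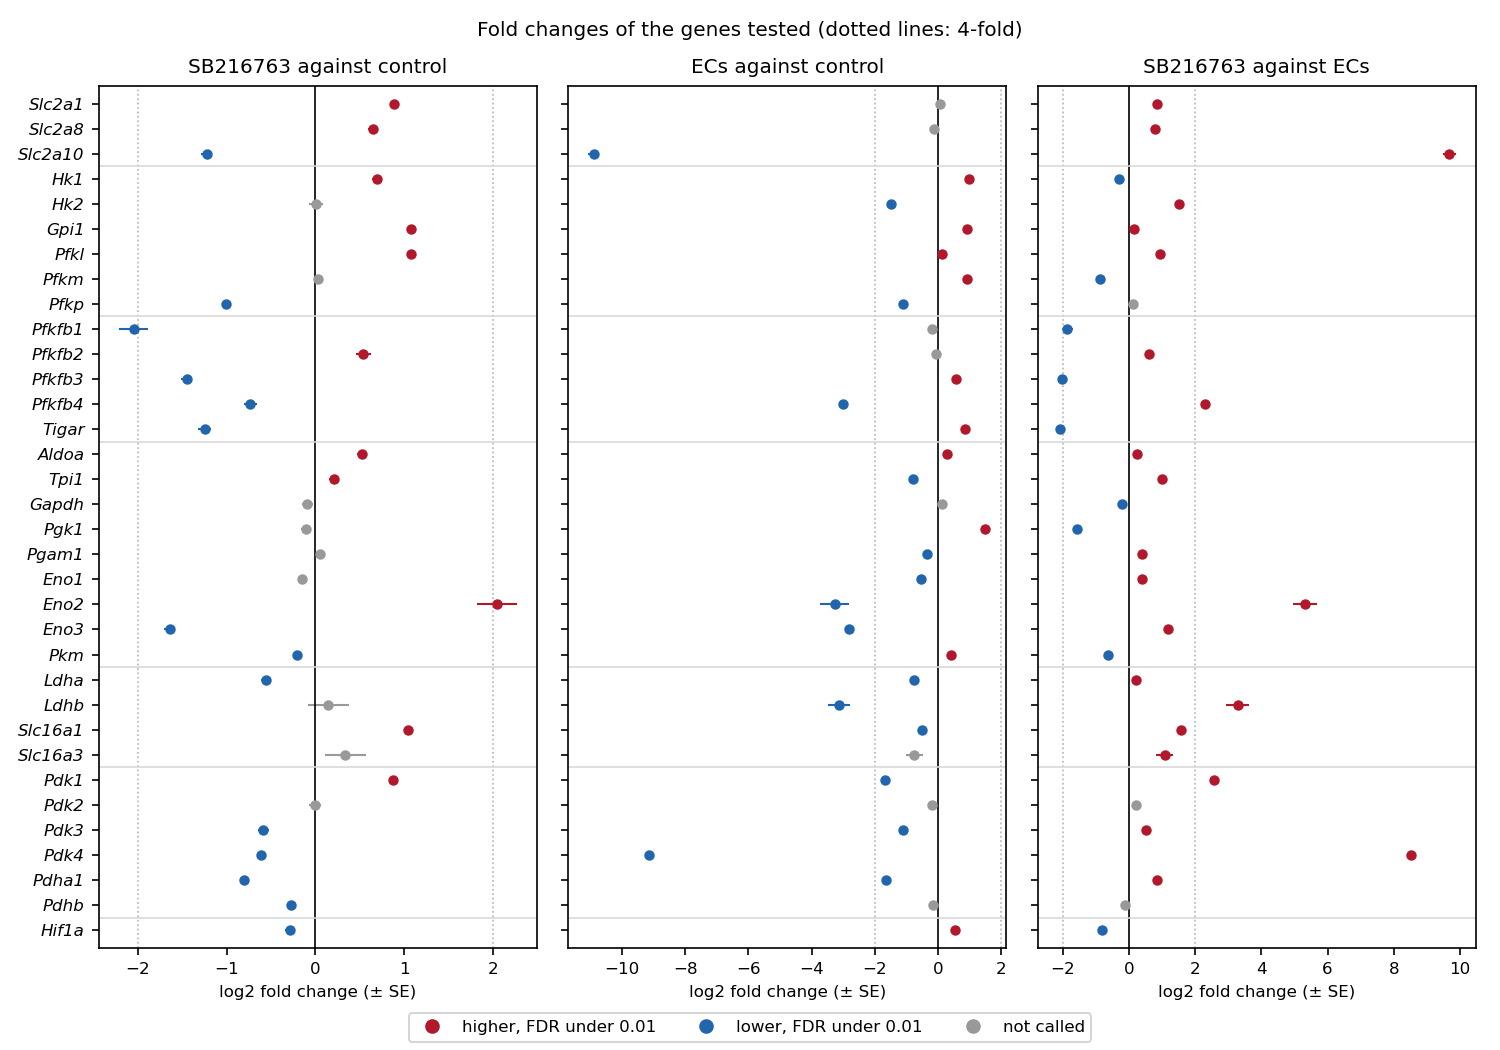
Log2 fold changes with SE of the 34 tested genes in the 3 comparisons, with genes in the order of the pathway, red for higher and blue for lower at an adjusted p under 0.01, grey for not called and dotted lines at 4-fold. The first panel runs from -2.05 (Pfkfb1) to 2.05 (Eno2), and the panels with ECs reach -10.90 and 9.68 (Slc2a10).

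Between ECs and control osteoblasts, 10 of the 34 genes were higher in ECs and 16 lower, or 29.4% and 47.1%, beside 39.0% and 37.9% of all genes tested. The median log2 difference was -0.28. Of these genes 6 were lower by 4-fold or more in ECs (17.6%, beside 9.87% of all genes) and none was higher by 4-fold (beside 13.5%); by an adjusted p under 0.01 alone, 10 were higher. At 2-fold, 1 was higher and 11 lower (2.94% and 32.4%, beside 21.2% and 17.5%). The 6 were Slc2a10, Pfkfb4, Eno2, Eno3, Ldhb and Pdk4, with log2 differences from -2.81 to -10.90. Slc2a10, Eno2 and Pdk4 were below the level of the filter in every EC library and Ldhb in 2 of the 3. They were thus tested because the osteoblasts expressed them. The shares of lower genes at each threshold (47.1%, 32.4% and 17.6%) include them and are not read against those of all genes. The genes higher in ECs were Hk1, Gpi1, Pfkl, Pfkm, Pfkfb3, Tigar, Aldoa, Pgk1, Pkm and Hif1a, led by Pgk1, Hk1, Gpi1 and Pfkm at 2.78-fold, 1.98-fold, 1.90-fold and 1.87-fold. The call of Pfkl rested on a log2 difference of 0.14 ± 0.042 (edgeR, adjusted p = 0.006) and was lost in 7 of the 9 fits that left out 1 library, all but those without control replicate 2 and SB216763 replicate 3, with adjusted p from 0.011 to 0.042 (edgeR), as well as without the filter and in the fit of those groups alone. In the other direction, fits that left out 1 library called lower in ECs Pdk2 (without control replicate 3, SB216763 replicates 1 or 3, or EC replicate 3), Pdhb (without control replicate 3 or SB216763 replicate 3) and Slc16a3 (without SB216763 replicate 3), with adjusted p from 0.0036 to 0.0096 (edgeR). In the fit of those groups alone all 3 were called lower. Pdk2, at an adjusted p of 0.011 in the main fit (edgeR), was also called lower with limma-voom (adjusted p = 0.0099). The same held with upper-quartile scaling and without the filter (edgeR, adjusted p = 0.0088 and 0.0043).

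Treated osteoblasts and ECs were also compared directly. With SB216763, 22 of the 34 genes were higher than in ECs and 9 lower, or 64.7% and 26.5%, beside 38.3% and 40.3% of all genes tested, and the median log2 difference was 0.46. At 4-fold, 6 were higher (17.6%, beside 10.3%) and 2 lower (5.88%, beside 15.0%), and at 2-fold 10 and 4 (29.4% and 11.8%, beside 19.2% and 23.2%). Those higher by 4-fold or more were Slc2a10, Pfkfb4, Eno2, Ldhb, Pdk1 and Pdk4. Of these, Slc2a10, Eno2, Ldhb and Pdk4 passed the filter only through the osteoblast libraries. The shares of higher genes at each threshold (64.7%, 29.4% and 17.6%) include them and are not read against those of all genes. Pdk1 differed 5.88-fold (log2 difference 2.56 ± 0.057, edgeR, adjusted p = 4e-16). The 9 lower genes were Hk1, Pfkm, Pfkfb1, Pfkfb3, Tigar, Gapdh, Pgk1, Pkm and Hif1a. Leaving out 1 library ended the calls of Gpi1 and Ldha (without SB216763 replicates 1 or 2 or EC replicates 1 or 2, adjusted p up to 0.030 and 0.023, edgeR) and of Gapdh (without SB216763 replicates 1 or 3 or EC replicate 3, adjusted p up to 0.017, edgeR), whose log2 differences were 0.15 ± 0.043, 0.19 ± 0.054 and -0.22 ± 0.059. Without the filter Gpi1 and Gapdh, and with library sizes alone Gapdh, were not called either. Pdk2 was called higher than in ECs without control replicate 2 or SB216763 replicate 3 (adjusted p = 0.0091 and 0.0016, edgeR) and in 4 other fits: with library sizes alone, with upper-quartile scaling, without the filter and with those groups alone. Pfkp was called higher than in ECs with library sizes alone (edgeR, adjusted p = 0.0015). The comparisons with ECs and that with controls share libraries, so their values are given side by side. For Slc2a1, SB216763 against control gave a log2 difference of 0.88, ECs against control 0.052 and SB216763 against ECs 0.83. For Pfkp these were -1.01, -1.12 and 0.11, for Gpi1 1.08, 0.93 and 0.15, for Pfkfb3 -1.45, 0.56 and -2.01, and for Pdk1 0.88, -1.68 and 2.56.

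The share of each isozyme was computed per kb of exon in each library, among those of the 37 genes that belong to its family, and is a description with no test. Slc2a1 made 40.6 ± 1.21% of the 5 glucose transporters in controls, 62.0 ± 0.0442% with SB216763 and 71.8 ± 0.311% in ECs (SD, n = 3), and Slc2a10 41.1 ± 0.671%, 14.5 ± 0.466% and 0.0331 ± 0.0295%. Other Slc2a genes are outside this sum, and 1 of them, Slc2a9, held 2.29, 2.86 and 6.63 CPM per kb in the 3 groups, beside 10.9 CPM per kb of Slc2a1 in ECs. With the median length of basic transcripts instead of all exons, Slc2a1 made 36.1 ± 1.23%, 52.3 ± 0.230% and 58.3 ± 0.391%, and it led Slc2a10 in controls (34.2 ± 0.504%). Hk1 made 56.3 ± 1.55%, 67.3 ± 0.226% and 87.7 ± 0.307% of the pair with Hk2. The leading phosphofructokinase-1 gene differed between the groups. Pfkl made 37.7 ± 1.08% in controls, 59.2 ± 0.821% with SB216763 and 30.8 ± 0.194% in ECs, while Pfkm made 46.0 ± 1.13%, 34.9 ± 0.704% and 63.7 ± 0.255% and Pfkp 16.2 ± 0.266%, 5.98 ± 0.342% and 5.51 ± 0.202%. By the length of basic transcripts, Pfkl led in controls (36.3 ± 0.917%) and Pfkp followed (34.3 ± 0.434%), so the order in controls depends on the length used, whereas Pfkl led with SB216763 under both.

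Among the PFKFB genes, Pfkfb3 made 42.9 ± 1.36% in controls, 27.2 ± 0.638% with SB216763 and 71.9 ± 1.08% in ECs, Pfkfb2 12.7 ± 0.759%, 32.4 ± 2.31% and 13.9 ± 0.948%, and Pfkfb4 35.04 ± 1.04%, 36.5 ± 2.26% and 4.91 ± 0.387%. By the length of basic transcripts Pfkfb4 made 18.8 ± 0.774%, 19.5 ± 1.54% and 2.13 ± 0.171%, and Pfkfb2 led with SB216763 (41.4 ± 2.29%), so the leading gene with SB216763 depends on the length used, while Pfkfb3 led in controls and ECs under both. Eno3 made 15.9 ± 0.497% of the 3 enolases in controls, 6.24 ± 0.343% with SB216763 and 3.79 ± 0.129% in ECs, and nearly all the rest was Eno1. By the length of basic transcripts Eno3 made 7.61 ± 0.262%, 2.82 ± 0.162% and 1.68 ± 0.0585%. Of the PDKs, Pdk1 made 9.54 ± 0.132%, 21.3 ± 0.153% and 9.53 ± 1.02%, and Pdk4 42.7 ± 1.48%, 34.1 ± 1.30% and 0.246 ± 0.0983%. In ECs Pdk3 and Pdk2 made 48.0 ± 0.106% and 42.2 ± 1.05%, and 44.0 ± 0.117% and 45.0 ± 1.14% by the length of basic transcripts. Aldoa and Ldha made over 99% of the pairs with Aldoc and Ldhb in every group under both lengths, and Slc16a1 over 98% of the pair with Slc16a3.

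**Figure D3:**
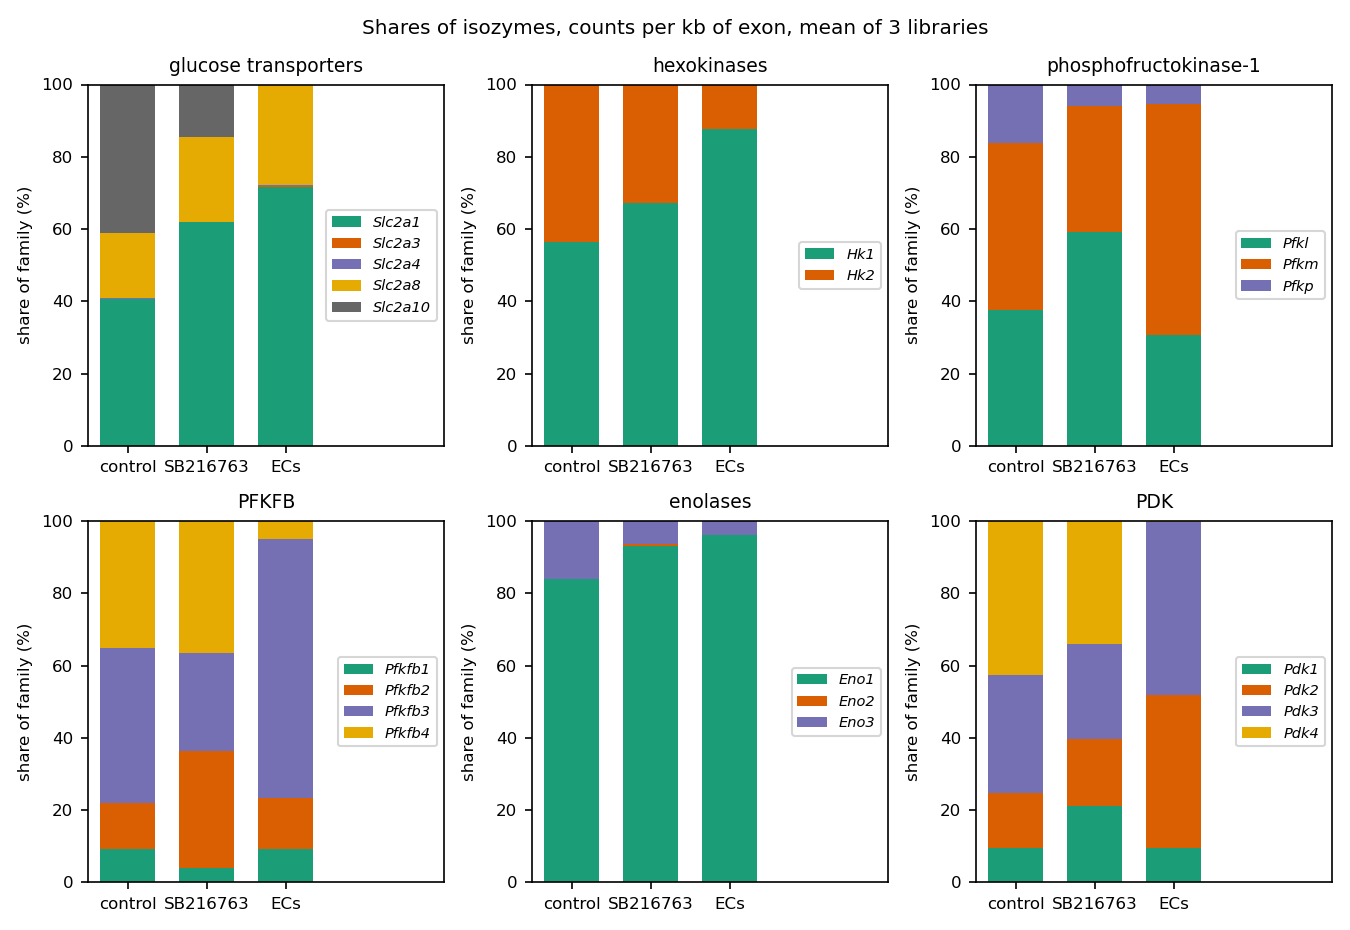
Stacked shares, in percent and per kb of exon, of the listed members of 6 isozyme families in control osteoblasts, SB216763-treated osteoblasts and ECs, as means of 3 libraries. Slc2a1 widens from 40.6% to 62.0% with SB216763 as Slc2a10 narrows, Pfkl widens from 37.7% to 59.2%, and Pfkfb3 makes 71.9% in ECs.

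The rest of the pathway was measured through 32 other glycolysis and pyruvate genes, of which 24 were tested. With SB216763, 8 rose, 6 fell and 10 were not called, beside 32.9% of all genes rising and 32.0% falling. Pgam2, the muscle phosphoglycerate mutase, rose from 0.914, 0.819 and 1.01 CPM to 6.85, 6.33 and 7.79 CPM (log2 fold change 2.95 ± 0.14, edgeR, adjusted p = 1.3e-11). Slc2a6, encoding the lysosomal transporter GLUT6, fell from 5.04, 5.64 and 4.58 CPM to 1.26, 1.33 and 1.20 CPM (log2 fold change -2.02 ± 0.14, edgeR, adjusted p = 1.5e-09). The study assayed casein kinase 2 and the insulin receptor substrates beside GLUT4 without naming kinase subunits, and 3 subunit genes were taken here. Of these 5 genes 4 fell and none rose, beside 32.0% of all genes falling and 32.9% rising. The 4 were Csnk2a2 and Csnk2b, subunits of casein kinase 2, and the insulin receptor substrates Irs1 and Irs2. Irs1 fell from 595, 476 and 608 CPM to 121, 124 and 129 CPM and Irs2 from 32.4, 26.3 and 31.3 CPM to 10.3, 10.8 and 10.9 CPM. Csnk2a1 had a log2 difference of 0.14 ± 0.049 (edgeR, adjusted p = 0.019).

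The oxygen-sensing genes and other known HIF-1 targets were set beside these. Of 8 tested genes of oxygen sensing, 4 rose with SB216763, 1 fell and 3 were not called, beside 32.9% of all genes rising and 32.0% falling. The 4 were the prolyl hydroxylases Egln1 and Egln2, the ubiquitin ligase component Vhl and the asparagine hydroxylase Hif1an. Their log2 fold changes were 0.47, 0.31, 0.52 and 0.62. They restrain HIF, as does the prolyl hydroxylase Egln3, which was listed too and was not among them. Arnt2, a partner of HIF subunits, fell from 2.60, 2.46 and 2.57 CPM to 0.631, 0.730 and 0.681 CPM. Of 16 tested HIF-1 targets outside glycolysis, 9 rose, 5 fell and 2 were not called, beside the same 32.9% and 32.0% of all genes. Vegfa, the vascular growth factor, rose from 59.9, 63.9 and 60.7 CPM to 192, 188 and 197 CPM (log2 fold change 1.64 ± 0.045, edgeR, adjusted p = 1.6e-14), and the carbonic anhydrase gene Car9 from 0.252, 0.218 and 0.278 CPM to 1.15, 0.652 and 1.77 CPM. The 5 that fell were Ndrg1, P4ha2, Mxi1, Ero1l and Ak4. Ndrg1, a stress-responsive gene, fell from 65.7, 66.8 and 61.3 CPM to 5.10, 5.94 and 5.39 CPM (log2 fold change -3.56 ± 0.072, edgeR, adjusted p = 4.8e-16). Epas1, encoding HIF-2 alpha, measured 0.660 to 0.756 CPM in controls and 774 to 787 CPM in ECs and was chosen for mention after its values were seen.

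**Figure D4:**
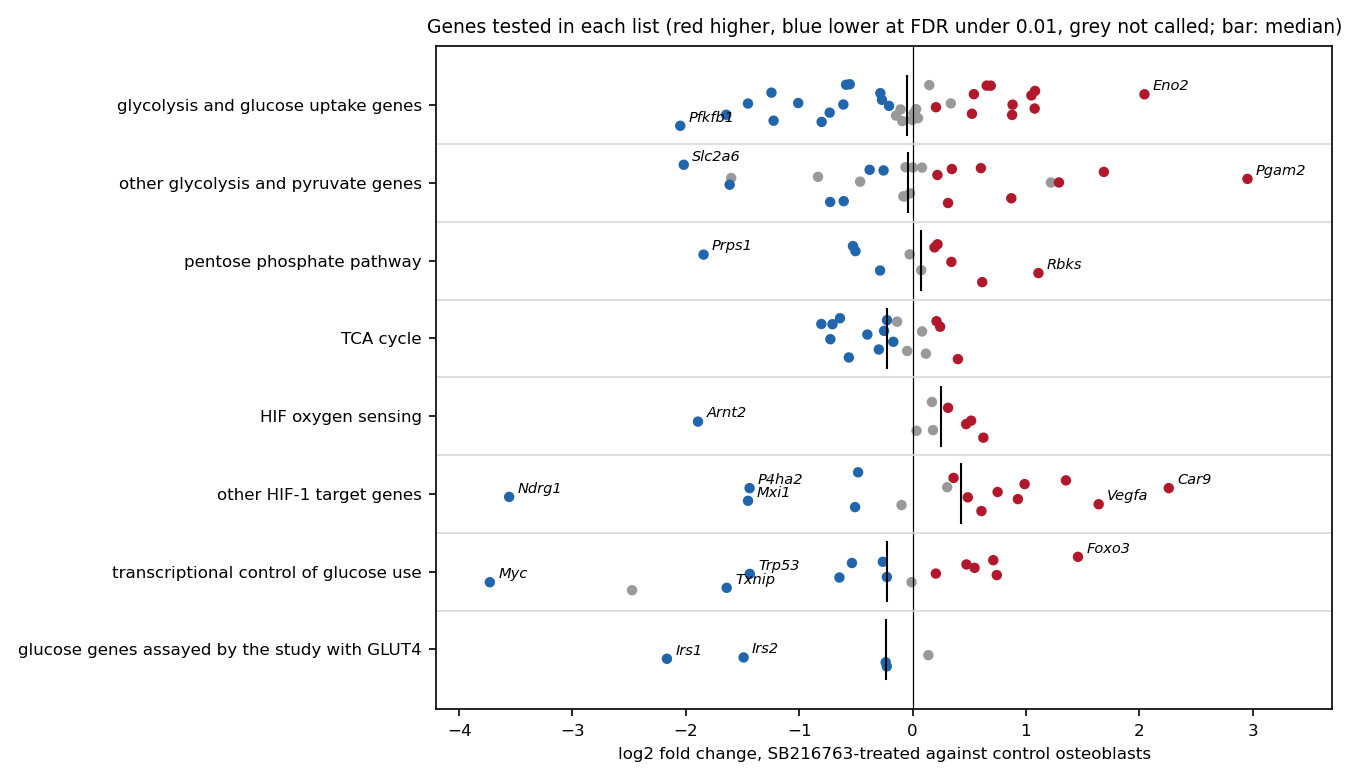
Log2 fold change of each tested gene with SB216763 against control, by gene list, with red for higher and blue for lower at an adjusted p under 0.01, grey for not called and a vertical bar at each list's median. The glycolysis and glucose uptake genes run from -2.05 to 2.05 around a median of -0.047, and the lists beside them also spread to both sides of 0.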

How the data were processed

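RNA had been extracted as total RNA, made into libraries with a KAPA kit and sequenced on an Illumina instrument. Per the labels, the authors aligned reads with STAR (2.5.3a) to GRCm38, and they deposited 1 table of raw read counts per gene (50686 rows, versioned Ensembl identifiers). The annotation and the strand setting of the counting are not given in the sources used here. Symbols, coordinates and exon lengths were taken from GENCODE mouse release M21 (GRCm38), which held 50462 of the 50686 identifiers, and the 9 columns were matched to samples by their titles.

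Counts were tested with edgeR (4.0.16, R 4.3.3): TMM factors, filterByExpr by group, and 1 quasi-likelihood fit over all 9 libraries with group means, the 3 pairwise contrasts and Benjamini-Hochberg adjustment over 15531 genes. A gene was called at an adjusted p under 0.01, and by a second rule with a change of at least 4-fold. The scripts were tested on simulated counts. SEs were computed from the fold change and the F statistic. The fit shared its estimate of the spread over the 3 groups, whose replicates were unequally alike. Between libraries of a group, chi-square per gene of raw counts was 27.2 to 104 in controls, 3.24 to 27.4 with SB216763 and 2.85 to 4.57 in ECs. An SE is therefore not the spread of the compared groups alone. Ratios of genes near 0 carry exact 95% Poisson intervals, which cover counting error only. Alternatives were DESeq2 (1.42.0), limma-voom (3.58.1), other scalings and filters, the compared groups alone, the replicate number as a block, looser thresholds, and leaving out each library. The lengths of basic transcripts were added as an alternative for isozyme shares after seeing the data.

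The genes and lists were chosen with earlier results of these data known. All 37 genes are named; of the 7 other lists, the genes called with at least a 2-fold change between SB216763 and control and a mean of at least 1 CPM, at most 5 per list, and, where 5 or fewer genes of a list moved one way, these in full. Figures were drawn with matplotlib.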

Additional observations from a re-analysis of the deposited data

How the results depend on the processing

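With SB216763 against control, the numbers of the 34 genes called higher and lower by adjusted p alone stayed within 1.5 times 11 and 14 under every alternative run, and likewise in both comparisons with ECs. Counts at 4-fold rest on few genes. Against control, the 1 higher gene (Eno2) became 0 to 1 over the fits leaving out 1 library (0 without control replicates 1 and 2 and SB216763 replicates 1 and 3) and the 1 lower gene (Pfkfb1) 0 to 1 (0 without SB216763 replicate 3), 0 with library sizes alone and 2 without the filter. Against ECs, the 2 lower genes (Pfkfb3 and Tigar) became 1 (Tigar) with library sizes alone, with upper-quartile scaling and in the fit of those groups alone, and 1 to 2 over the fits leaving out 1 library (1 without SB216763 replicate 3 or EC replicate 2). With a 2-fold threshold, counts were 4 higher and 6 lower for SB216763 against control, beside 11.1% and 13.0% of all genes. They were 1 and 11 for ECs against control (beside 21.2% and 17.5%) and 10 and 4 for SB216763 against ECs (beside 19.2% and 23.2%). The 11 and the 10 include genes that passed the filter only through the osteoblast libraries. The genes whose direction turned were not called under either setting. With library sizes alone, log2 differences with SB216763 became 0.11 for Gapdh, 0.097 for Pgk1, 0.058 for Eno1 and 0.20 for Pdk2, and that of Pfkfb2 between ECs and controls became 0.063. Pdk2 became 0.015 with upper-quartile scaling, 0.0077 without the filter, 0.00074 with a filter of 10 counts, and -0.0502 to 0.0585 over the fits without 1 library; Hk2 became -0.012 in the fit of 2 groups and -0.12 to 0.11 over the fits without 1 library. The cause was not tested, except that library sizes alone leave the median of all genes 0.20 higher. Deviations of same-numbered replicates from their group means had correlations from -0.039 to 0.12. With so few libraries, such values cannot exclude a shared culture day or batch. The sources used here do not describe pairs, so no pairing was used in the main fit. With the replicate number as a block, 11 higher and 14 lower genes were called with SB216763 against control, and no call changed in any comparison except Pdhb, called lower in ECs than in controls (edgeR, adjusted p = 0.0092). Depth limits only Slc2a3, Slc2a4 and Aldoc in every group, and Slc2a10, Eno2, Ldhb and Pdk4 in ECs.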

Other observations

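The pathways next to glycolysis were measured as well. Of 11 pentose phosphate pathway genes with SB216763 against control, 5 rose, 4 fell and 2 were not called. Of all genes tested, 32.9% rose and 32.0% fell. The 5 were the cytosolic dehydrogenases of the oxidative branch, G6pdx and Pgd, with H6pd, Rbks and Prps2. G6pdx went from 79.1, 77.4 and 78.2 CPM to 90.0, 94.6 and 88.9 CPM. Pgd went from 81.6, 82.4 and 74.3 CPM to 122, 125 and 119 CPM. The 4 that fell were Pgls, also of the oxidative branch, Tkt, the transketolase of the non-oxidative branch, Rpe and Prps1. Prps1, which makes the ribose precursor of nucleotides, had the largest change of the 11, from 63.6, 65.2 and 61.8 CPM to 17.5, 19.3 and 16.3 CPM (log2 fold change -1.84 ± 0.055, edgeR, adjusted p = 5.6e-14). Rbks, ribokinase, rose from 1.15, 0.910 and 1.08 CPM to 1.95, 2.68 and 2.12 CPM. In ECs the transaldolase gene Taldo1 measured 425 to 448 CPM beside 68.5 to 77.8 CPM in controls, and it was chosen for mention after its values were seen.

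Of 17 TCA cycle genes, 10 fell, 3 rose and 4 were not called with SB216763, beside 32.0% of all genes falling and 32.9% rising. By 2-fold, 13.0% of all genes were lower and 11.1% higher, and none of the 17 changed that much. Their median log2 fold change was -0.23, beside 0.014 over all genes tested. The 3 that rose were Ogdh, Idh3b and Sdhc, with log2 fold changes of 0.40, 0.21 and 0.24. Citrate synthase (Cs) measured 334, 328 and 323 CPM in controls, 211, 218 and 203 CPM with treatment and 424, 425 and 432 CPM in ECs and was chosen for mention after its values were seen.

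Of 15 tested genes of transcriptional control of glucose use, 6 rose, 7 fell and 2 were not called. The shares over all genes were 32.9% and 32.0%. Myc, a known activator of glycolytic genes, fell from 233, 220.3 and 219 CPM to 16.3, 17.8 and 16.6 CPM (log2 fold change -3.73 ± 0.055, edgeR, adjusted p = 2.1e-17) and measured 134, 127 and 137 CPM in ECs. Txnip, whose protein restrains glucose uptake and whose gene responds to glucose, fell from 165, 157 and 153 CPM to 50.5, 51.4 and 50.7 CPM. Trp53, which encodes the transcription factor p53, fell from 218, 223 and 209 CPM to 78.4, 82.3 and 80.0 CPM. Foxo3 rose from 125, 106 and 117 CPM to 322, 319 and 315 CPM.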
